A study of Mus musculus with 3 samples.

Results

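Triglyceride, the storage lipid of fat cells, is put together by a short chain of acyltransferases and a phosphatase, and 10 genes that encode them were followed here in epididymal fat of mice during the development of obesity. The members were taken by name: Gpam, Gpat3, Agpat2, Agpat3, Lpin1, Lpin2, Lpin3, Dgat1, Dgat2 and Mogat1, which are 10 of the 29625 gene identifiers in the deposited tables and were listed in every library. Single-nucleus RNA libraries (10x Genomics) were made from adipose tissue of the epididymis of male C57BL/6J mice at 3 stages. The Ctrl library came from mice on full diet, and the Mid_Ob and Ob libraries came from mice on high fat diet with 60% fat. The mice were bought at 5 weeks of age and were given 1 week to settle, and the scheme of the study places Ctrl, Mid_Ob and Ob at 5, 7 and 9 w, without saying whether this is age or time on diet. Mid_Ob mice were chosen for a body weight over 10% above the control mean and Ob mice for over 20% above it. Nuclei of 8 mice were pooled in each library, so each stage is 1 library, no difference could be set against the spread between mice, and no p-value is given.

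In the glycerol 3-phosphate pathway, a glycerol-3-phosphate acyltransferase (GPAT) adds the first fatty acid, an acylglycerophosphate acyltransferase (AGPAT) adds the second, a lipin removes the phosphate from phosphatidate, and a diacylglycerol acyltransferase (DGAT) adds the last fatty acid. Loss of AGPAT2 in people and loss of lipin 1 in the fatty liver dystrophy mouse both lead to a lack of adipose tissue. Monoacylglycerol acyltransferases such as MOGAT1 reach diacylglycerol by another route, from monoacylglycerol.

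RefSeq promoter windows on GRCm38.p6 matched 8 of the 10 genes, and the 250 bases before the start are shown for 4 of them. Gpat3 and Agpat2 are shown because they were higher in the adipocyte-like nuclei of Mid_Ob than of Ctrl, Lpin1 because it was lower there, and Gpam because it encodes the mitochondrial enzyme of the same step as Gpat3. Lpin3 was also higher and Mogat1 also lower there, but their windows are not shown. Dgat2, also higher there, had no window, and neither did Dgat1. Each sequence reads 5′ to 3′ on the strand of the gene, and capitals mark a GC box (GGGCGG) or a CCAAT box in either orientation.
Gpat3, chr5:100845979-100846228, plus strand: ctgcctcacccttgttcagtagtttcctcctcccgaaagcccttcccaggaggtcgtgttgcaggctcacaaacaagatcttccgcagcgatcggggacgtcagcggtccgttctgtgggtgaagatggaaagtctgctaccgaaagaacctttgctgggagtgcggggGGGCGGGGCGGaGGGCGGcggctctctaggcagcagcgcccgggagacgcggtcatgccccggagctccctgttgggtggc
Agpat2, chr2:26604418-26604667, minus strand: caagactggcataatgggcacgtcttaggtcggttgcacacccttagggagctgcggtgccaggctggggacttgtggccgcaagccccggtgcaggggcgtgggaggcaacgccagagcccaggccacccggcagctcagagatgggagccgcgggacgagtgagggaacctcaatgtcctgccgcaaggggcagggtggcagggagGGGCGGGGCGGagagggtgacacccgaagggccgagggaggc
Gpam, chr19:55127239-55127488, minus strand: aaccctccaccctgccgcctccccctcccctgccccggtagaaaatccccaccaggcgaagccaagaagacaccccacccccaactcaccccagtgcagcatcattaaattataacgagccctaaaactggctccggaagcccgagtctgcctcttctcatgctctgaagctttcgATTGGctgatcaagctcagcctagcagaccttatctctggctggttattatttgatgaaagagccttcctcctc
Lpin1, chr12:16610967-16611216, minus strand: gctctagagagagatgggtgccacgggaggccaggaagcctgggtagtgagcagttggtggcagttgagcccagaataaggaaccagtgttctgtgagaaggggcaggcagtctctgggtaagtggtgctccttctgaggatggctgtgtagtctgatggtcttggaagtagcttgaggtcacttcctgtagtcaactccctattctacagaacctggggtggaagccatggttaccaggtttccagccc
The Gpat3 window held GC boxes starting at -81, -76 and -69 from the start, and the Agpat2 window held GC boxes at -42 and -37; neighbouring boxes overlap at -81 and -76 and at -42 and -37. The Gpam window shown held a CCAAT box at -74, a second Gpam window (chr19:55099478-55099727, GC content 66%) held a GC box at -16, and the Lpin1 window held none of the motifs searched. Of the windows not shown, that of Mogat1 and the first of Lpin3 held none of them. The second Lpin3 window held a GC box at -111, and that of Agpat3 held the C/EBP site TTGCNNAA at -149. The first Lpin2 window held the E-box CACGTG at -9 and a GC box at -24, and the second a GC box at -79. The third Lpin2 window held CCAAT boxes at -233, -165 and -57 and the C/EBP site at -70. The first bases after the start of the second Gpam window and of the first Lpin2 window were found in no annotated transcript of the gene. The motifs were searched on both strands, and of 32851 windows of the same length 32.7% held a GC box, 33.8% CCAAT, 12.4% TATAAA, 9.56% the C/EBP site TTGCNNAA and 6.02% the E-box CACGTG. GC content was 69.2% for Agpat2, 64% for Gpat3 and 54.8% for both the Gpam window shown and Lpin1, beside 52.4% over all windows.

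The deposited tables gave the level of each gene in 14 clusters of Ctrl, 11 of Mid_Ob and 21 of Ob, and whole UMI counts were recovered from them, 53980929, 57665213 and 111595518 in all. Levels are given as CPM, the count of a gene scaled to the UMIs of its cluster, and are compared within a gene only. Classes are named from marker lists, and the adipocyte-like name fell to cluster 2 in Ctrl (25.2% of its UMIs), to cluster 1 in Mid_Ob (46.9%), and in Ob to clusters 4, 5 and 7 (55.4%). Of the 15 adipocyte markers 14, 14, 13, 10 and 14 were over 2-fold above their median level in the other clusters of the library in these, and none was at 0. Germ cell-like, testis somatic-like and epididymal epithelium-like clusters held 26.3%, 15.4% and 5.32% of the Ctrl UMIs, and epididymal epithelium-like clusters held 30.3% of the Mid_Ob UMIs. No cluster of Ob carried these names. In the adipocyte-like nuclei the 12 germ cell markers summed to 508.1, 117 and 156 CPM in Ctrl, Mid_Ob and Ob, and the 14 epididymal markers to 297, 2276 and 78.9 CPM. Cluster 5 of Ob carried 2953 CPM of the 14 macrophage markers, against 594 in cluster 4 and 596 in cluster 7, and 9398 CPM of the 15 adipocyte markers against 13941 and 14464. In whole libraries fewer nuclei of a type and less RNA per nucleus cannot be told apart.

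In the adipocyte-like nuclei, transcripts of the enzymes did not differ in 1 direction. From Ctrl to Mid_Ob, 4 of 10 genes were over 1.5-fold higher (Gpat3, Agpat2, Lpin3 and Dgat2) and 2 were over 1.5-fold lower (Lpin1 and Mogat1). From Mid_Ob to Ob, none of the 10 was higher by this fold and 4 were lower (Gpat3, Agpat2, Dgat2 and Mogat1). Without cluster 5 of Ob, which held 32.6% of the Ob UMIs, Gpat3 and Agpat2 fell short of this fold and Lpin2 was lower. From Ctrl to Ob, Agpat2 was higher and Gpam, Lpin1 and Mogat1 were lower. A gene was counted where the libraries compared held 50 or more of its counts, and over all such genes 15.3% were higher and 20.2% lower by this rule in Mid_Ob against Ctrl, 15.3% and 19% in Ob against Mid_Ob, and 18.8% and 27.6% in Ob against Ctrl. The median log2 ratio of the 10 genes was 0.14, -0.55 and -0.06 in these comparisons, beside -0.08, -0.03 and -0.12 over all genes. The 3 comparisons share libraries. Ranges in parentheses are 95% intervals, exact Poisson for levels and conditional binomial for ratios, and they cover counting error only.

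Over whole libraries the counts were different. Agpat2, Lpin3 and Dgat2 were higher in Mid_Ob than in Ctrl and no enzyme was lower, beside 17.3% and 35.5% of all genes. Agpat3, Lpin3, Dgat2 and Mogat1 were lower in Ob than in Mid_Ob and none was higher, beside 27.3% lower and 17.5% higher of all genes. Agpat2 and Dgat2 were higher and Agpat3 and Mogat1 lower in Ob than in Ctrl, beside 18.1% and 43.5%. Without the testis and epididymis clusters, Gpat3 was also higher in Mid_Ob than in Ctrl (log2 ratio 0.95), Gpam, Gpat3 and Agpat2 were also lower in Ob than in Mid_Ob (-0.84, -0.88 and -0.93), and Lpin3 no longer was (-0.44). In Ob against Ctrl, Gpam and Lpin1 were then lower (-0.88 and -0.97), Lpin2 was higher (0.66) and Dgat2 was within 1.5-fold (0.45). With every cluster at equal weight Lpin1 and Mogat1 were also lower in Mid_Ob than in Ctrl (-0.85 and -0.82), and Gpat3, Lpin1 and Gpam in Ob than in Ctrl (-1.49, -0.79 and -0.69). Gpat3 was then lower in Mid_Ob than in Ctrl too (-1.12), against a ratio of 1.19 with clusters weighted by their UMIs, and the Agpat2 call was lost (0.41). The same weighting took Dgat2 in Ob over Mid_Ob from -0.84 to -0.09, Mogat1 from -0.91 to -0.18 and Lpin3 from -0.66 to -0.38, all then within 1.5-fold.

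**Figure D1:**
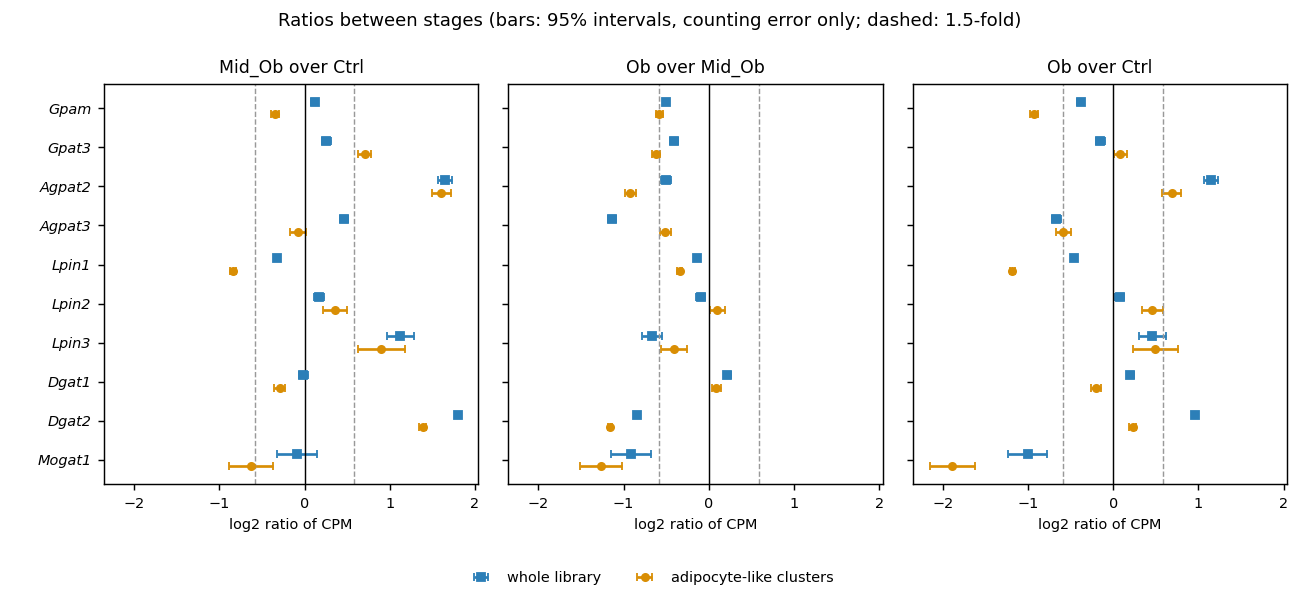
Log2 ratio of CPM between stages for each enzyme over the whole library (squares) and in adipocyte-like clusters (circles), with 95% intervals for counting error and dashed lines at 1.5-fold. Dgat2 and Agpat2 lie to the right of the 1.5-fold line in Mid_Ob over Ctrl and to the left of 0 in Ob over Mid_Ob, while Lpin1 lies to the left of 0 in all 3 comparisons.

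The GPAT step opens the pathway, with GPAM on the outer mitochondrial membrane and GPAT3 on the endoplasmic reticulum. Gpam (ENSMUSG00000024978, chr19:55067268-55127238 on GRCm38) stood at 374 CPM (364 to 385) in the adipocyte-like cluster of Ctrl, 294 (287 to 300.4) in that of Mid_Ob, and 247, 164 and 236 in clusters 4, 5 and 7 of Ob. All 3 Ob clusters lay below Mid_Ob and Ctrl without overlap of their intervals. The Ob level was 1.90-fold lower than Ctrl (1.84 to 1.97) and 1.495-fold lower than Mid_Ob (1.45 to 1.54), just within the 1.5-fold line. Without cluster 4 or cluster 7 of Ob the last value passed the line, at log2 ratios of -0.74 and -0.62, and it did so when scaled to the adipocyte markers (-0.68). Gpam shares bases with a gene on the opposite strand, and whether counting used strand is not stated, so its counts are uncertain.

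Gpat3 (ENSMUSG00000029314, chr5:100845713-100899102) was at 133 CPM (127 to 139) in Ctrl, 217 (211 to 222) in Mid_Ob, and 177, 118 and 164 in clusters 4, 5 and 7 of Ob. It was 1.63-fold higher in Mid_Ob than in Ctrl (1.55 to 1.72) and 1.54-fold lower in Ob than in Mid_Ob (1.49 to 1.59). Clusters 4 and 7 of Ob lay between Ctrl and Mid_Ob, and cluster 5 lay below Ctrl. The difference between Ob and Mid_Ob fell short of 1.5-fold without cluster 5 (log2 ratio -0.33) and with the clusters at equal weight (-0.50), and that between Mid_Ob and Ctrl did so when scaled to the adipocyte markers (log2 ratio 0.54). The highest Gpat3 levels of the series were in germ cell-like clusters of Ctrl, at 442 CPM (407 to 480) in cluster 14 and 304 (288 to 321) in cluster 7. Germ cell-like clusters held 46.7% of the Gpat3 counts of Ctrl and adipocyte-like nuclei 36.2%, and over whole libraries Gpat3 differed by 1.19-fold between Mid_Ob and Ctrl. Gpat3 also shares bases with a gene on the opposite strand, so its counts are uncertain.

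The AGPAT step makes phosphatidate. Agpat2 (ENSMUSG00000026922, chr2:26593057-26604417), the isoform known for its role in fat cells, was at 51.8 CPM (48.1 to 55.8) in the adipocyte-like nuclei of Ctrl and 158 (153 to 162) in those of Mid_Ob, and at 118, 65.3 and 87.0 in clusters 4, 5 and 7 of Ob. Every adipocyte-like cluster on high fat diet lay above Ctrl without overlap of intervals. It was 3.04-fold higher in Mid_Ob than in Ctrl (2.81 to 3.30), above the ratio of 95.5% of all genes, and 1.89-fold lower in Ob than in Mid_Ob (1.82 to 1.97). Ob remained 1.61-fold above Ctrl (1.49 to 1.74). Without cluster 5 the difference between Ob and Mid_Ob was a log2 ratio of -0.53, short of 1.5-fold. The call of Ob against Ctrl was lost without cluster 4 (log2 ratio 0.41) and when scaled to the adipocyte markers (0.42).

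Agpat2 had its highest levels outside the named adipocyte-like clusters. Unnamed clusters 18 and 13 of Ob, rich in mitochondrial transcripts (8.39% and 6.18% of UMIs), held 259 CPM (237 to 284) and 193 (169 to 219). Their adipocyte markers summed to 32632 and 22198 CPM. In Ctrl, germ cell-like cluster 14 held 169 CPM (147 to 193). The counts of Agpat2 are uncertain where genes on the opposite strand overlap it.

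Agpat3 (ENSMUSG00000001211, chr10:78269178-78352489), a more widely expressed isoform, was not set apart in adipocyte-like nuclei. They held it at 106 CPM (101 to 112) in Ctrl, 101 (97.3 to 105) in Mid_Ob, and 74.2, 67.4 and 80.6 in clusters 4, 5 and 7 of Ob. Mesothelial-like nuclei stood close to these levels, at 102, 113 and 78.5 CPM in Ctrl, Mid_Ob and Ob, and macrophage-like nuclei lower, at 71.8, 64.3 and 44.8. The highest level was 350.3 CPM (339 to 362) in epididymal epithelium-like cluster 3 of Mid_Ob, and epididymal epithelium-like clusters held 50.4% of the Agpat3 counts of that library. Over whole libraries it was 2.19-fold lower in Ob than in Mid_Ob (2.12 to 2.26), but in adipocyte-like nuclei 1.42-fold lower (1.36 to 1.49), which passed the line when scaled to the adipocyte markers (log2 ratio -0.61). In Ob against Ctrl, the adipocyte-like level was 1.4994-fold lower (1.41 to 1.59), and it passed the line without cluster 4 or cluster 7 and when scaled to the adipocyte markers (log2 ratios -0.61, -0.61 and -0.85). The part of epididymal RNA in the adipocyte-like level of Mid_Ob was not tested.

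**Figure D2:**
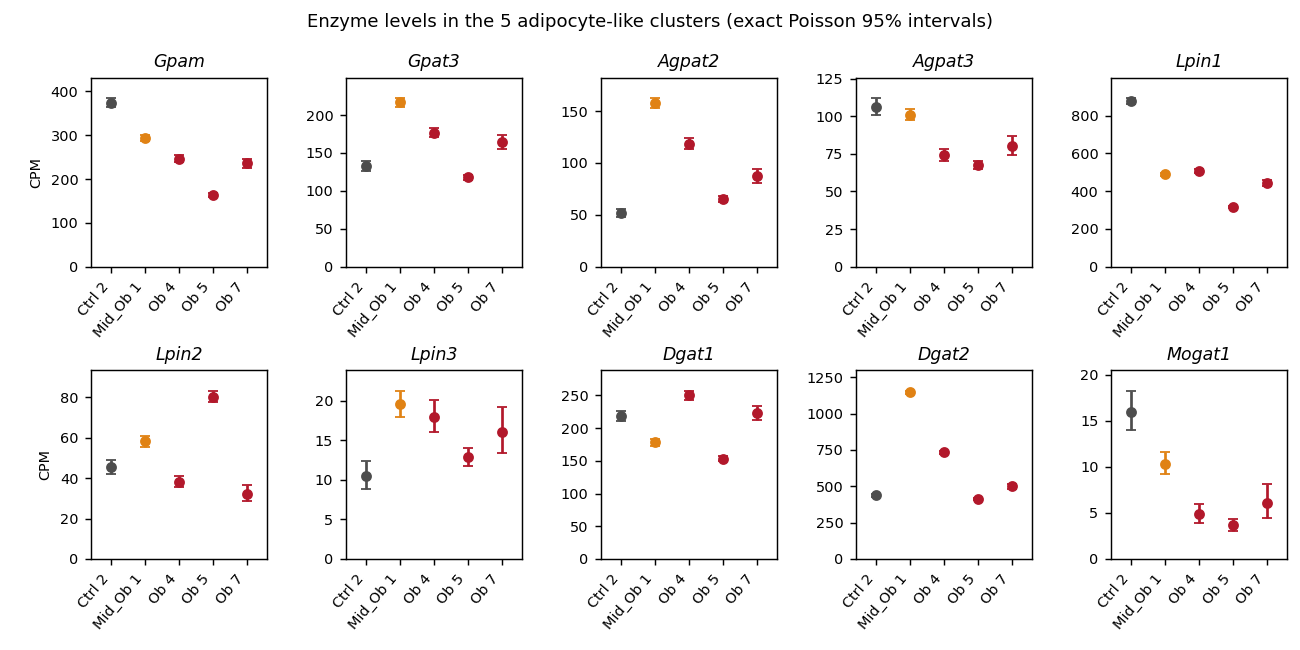
CPM of each enzyme in the 5 adipocyte-like clusters, 1 of Ctrl, 1 of Mid_Ob and 3 of Ob, with exact Poisson 95% intervals. Lpin1 and Mogat1 are highest in Ctrl, Dgat2, Agpat2 and Gpat3 are highest in Mid_Ob, and Lpin2 is highest in cluster 5 of Ob at 80.3 CPM.

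Lipins turn phosphatidate into diacylglycerol, and lipin 1 also acts in the nucleus as a coactivator of transcription. Lpin1 (ENSMUSG00000020593, chr12:16535669-16610966) was at 876 CPM (861 to 892) in the adipocyte-like nuclei of Ctrl, 489 (481 to 498) in Mid_Ob, and 506, 316 and 442 in clusters 4, 5 and 7 of Ob. Every cluster on high fat diet lay below Ctrl, and cluster 4 of Ob lay close to Mid_Ob with overlapping intervals (495 to 516 against 481 to 498). Lpin1 was 1.79-fold lower in Mid_Ob than in Ctrl (1.75 to 1.84) and 2.27-fold lower in Ob than in Ctrl (2.22 to 2.32). Ob and Mid_Ob differed by 1.27-fold (1.24 to 1.29). Over whole libraries, where adipocyte-like nuclei took a larger share of the UMIs on high fat diet, Lpin1 was 1.25-fold lower in Mid_Ob than in Ctrl and 1.38-fold lower in Ob.

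Lpin2 (ENSMUSG00000024052, chr17:71182560-71249817), best known from an inflammatory bone disease caused by its loss, had a pattern unlike the other enzymes. In adipocyte-like nuclei it was at 45.4 CPM (41.9 to 49.1) in Ctrl, 58.1 (55.3 to 61.0) in Mid_Ob, and 38.3, 80.3 and 32.4 in clusters 4, 5 and 7 of Ob. Cluster 5, which carried the macrophage markers, was 2.10-fold above cluster 4 and 2.48-fold above cluster 7, and it also lay above Ctrl and Mid_Ob. The part of the macrophage transcripts in this value was not tested. Without cluster 5 Lpin2 was lower in Ob than in Mid_Ob (log2 ratio -0.67), and without cluster 4 it was higher in Ob than in Ctrl (0.67). The annotation places Gm26561 on the same strand over the whole of Lpin2, so its counts are uncertain.

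Macrophage-like nuclei held Lpin2 at 101 CPM (92.5 to 111) in Ctrl, 114 (103 to 126) in Mid_Ob and 156 (151 to 161) in Ob, which was 1.54-fold above Ctrl (1.40 to 1.70). Of the 8 enzymes with enough counts in this class, Lpin2 was the only 1 higher in Ob than in Ctrl, and 5 were lower. Their median log2 ratio was -0.65, beside -0.08 over all genes. The share of all genes called in this class is not given here. The 6 Ob clusters of this class ranged from 113 to 175 CPM. Of the Lpin2 counts of Ob, 34.2% lay in macrophage-like clusters (33.3% to 35.2%), which held 19.6% of all UMIs. Outside this class the highest levels were 398 CPM (367 to 430) in unnamed cluster 7 of Mid_Ob, 217 (196 to 240) in unnamed cluster 17 of Ob, 191 (182 to 201) in epididymal epithelium-like cluster 2 of Mid_Ob and 148 (139 to 156) in testis somatic-like nuclei of Ctrl.

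Lpin3 (ENSMUSG00000027412, chr2:160880670-160906002), the least studied lipin, was at 10.5 CPM (8.85 to 12.4) in adipocyte-like nuclei of Ctrl, 19.6 (17.9 to 21.3) in Mid_Ob, and 18.03, 12.9 and 16.1 in clusters 4, 5 and 7 of Ob. It was 1.86-fold higher in Mid_Ob than in Ctrl (1.55 to 2.26), and its Ob level was 1.33-fold below Mid_Ob (1.19 to 1.48). Ob was 1.41-fold above Ctrl (1.18 to 1.69), and past 1.5-fold without cluster 5 (log2 ratio 0.73) or with median scaling (0.61). An antisense gene shares bases with Lpin3, so its counts are uncertain. Higher levels were found in stromal cells, at 39.4 CPM (33.9 to 45.4) in fibroblast or progenitor-like cluster 8 of Ob and 37.9 (21.7 to 61.6) in endothelial-like cluster 21 of Ob, from 16 counts. Cluster 4 of Ctrl, unnamed because all 12 fibroblast and all 10 endothelial markers were raised in it, held 35.2 CPM (28.5 to 42.9). Epididymal epithelium-like cluster 2 of Mid_Ob held 42.1 CPM (37.6 to 46.9). Macrophage-like nuclei held 3.14, 2.25 and 1.46 CPM in Ctrl, Mid_Ob and Ob.

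The DGAT step closes the pathway, and DGAT1 and DGAT2 are unrelated in sequence. Dgat2 (ENSMUSG00000030747, chr7:99153658-99182719), which esterifies mainly newly made fatty acids, was at 439 CPM (428 to 450) in adipocyte-like nuclei of Ctrl, 1146 (1133 to 1159) in Mid_Ob, and 733, 410.1 and 499 in clusters 4, 5 and 7 of Ob. Mid_Ob lay above every other adipocyte-like cluster. Dgat2 was 2.61-fold higher in Mid_Ob than in Ctrl (2.54 to 2.68) and 2.23-fold lower in Ob than in Mid_Ob (2.19 to 2.26). Ob and Ctrl differed by 1.17-fold (1.14 to 1.205), and without cluster 5, the only Ob cluster below Ctrl, Ob was higher (log2 ratio 0.60). The median log2 ratio of the 15 adipocyte markers between Mid_Ob and Ctrl was 0.03, with 1 marker past 1.5-fold in each direction. Unnamed cluster 18 of Ob reached 736 CPM (697 to 777), level with cluster 4 of Ob (720 to 746).

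Dgat1 (ENSMUSG00000022555, chr15:76502015-76511953), which also re-esterifies fatty acids freed by lipolysis, was at 218 CPM (210.5 to 226) in Ctrl, 178 (173 to 183) in Mid_Ob, and 249.95, 153 and 223 in clusters 4, 5 and 7 of Ob. Clusters 4 and 5 of Ob lay on either side of Ctrl and Mid_Ob, and cluster 7 overlapped Ctrl. In adipocyte-like nuclei no comparison of Dgat1 between stages passed 1.5-fold, with ratios of 0.817 (0.780 to 0.855), 1.06 (1.03 to 1.10) and 0.869 (0.835 to 0.905) for Mid_Ob over Ctrl, Ob over Mid_Ob and Ob over Ctrl.

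Mogat1 (ENSMUSG00000012187, chr1:78510991-78538173) was the gene with the fewest counts, between 301 and 310 in each whole library. Its adipocyte-like level was 16.003 CPM (13.9 to 18.3) in Ctrl, 10.4 (9.18 to 11.6) in Mid_Ob, and 4.87, 3.68 and 6.08 in clusters 4, 5 and 7 of Ob. The 3 Ob clusters lay below Mid_Ob, and Mid_Ob lay below Ctrl. Mogat1 was 1.54-fold lower in Mid_Ob than in Ctrl (1.29 to 1.85), a call lost when scaled by the median gene (log2 ratio -0.54), and 2.40-fold lower in Ob than in Mid_Ob (2.02 to 2.85). Ob was 3.71-fold below Ctrl (3.08 to 4.45), and 9.96% of all genes had a lower ratio. A gene on the opposite strand shares bases with Mogat1, so its counts are uncertain.

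Adipocyte-like nuclei held most of the counts of 5 of the 10 enzymes in Ctrl. They held 66.9%, 92.8% and 88.1% of the Dgat2 counts of Ctrl, Mid_Ob and Ob, 58.7%, 78.9% and 88.2% of the Gpam counts, and 72.4%, 92.7% and 86.1% of the Mogat1 counts, against 25.2%, 46.9% and 55.4% of all UMIs. Shares of Lpin1 (64.9%, 83.9% and 86.3%) and Dgat1 (54.0%, 82.7% and 89.5%) were alike. Gpat3 (36.2%, 91.9% and 93.3%) and Agpat2 (48.4%, 87.3% and 77.3%) had less in Ctrl. Lpin3, at 30.6%, 48.6% and 68.6%, was near the share of all UMIs in Ctrl and Mid_Ob. Agpat3, at 26.6%, 34.0% and 61.9%, lay below the share of all UMIs in Mid_Ob and a little above it in Ctrl and Ob. Lpin2, at 13.5%, 28.5% and 38.6%, lay below the share of all UMIs in every library.

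**Figure D3:**
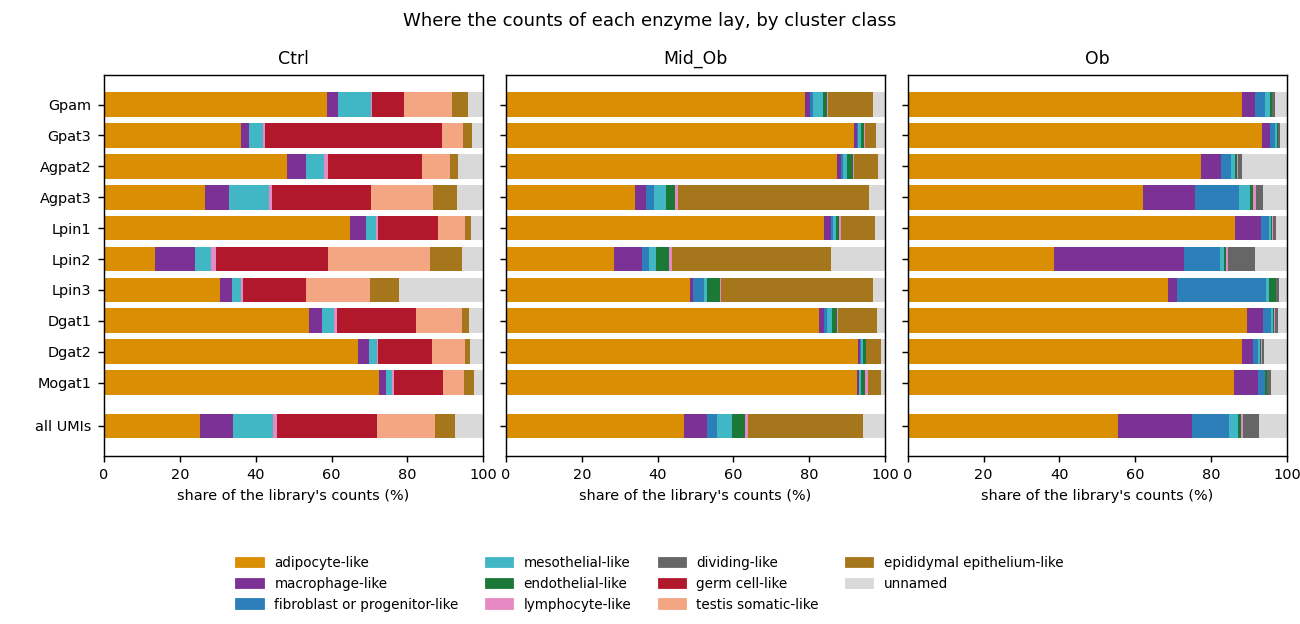
Share of the counts of each enzyme that lay in each class of clusters, by library, with the share of all UMIs in the lowest bar. Adipocyte-like nuclei hold most of the Dgat2, Lpin1, Gpam, Dgat1 and Mogat1 counts in all 3 libraries, whereas germ cell-like nuclei hold 46.7% of Gpat3 in Ctrl and epididymal epithelium-like nuclei hold 50.4% of Agpat3 in Mid_Ob.

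Transcripts of adipocytes were also counted in nuclei of other types. The macrophage-like level of the 15 adipocyte markers had a median of 12.8%, 9.31% and 16.3% of their adipocyte-like level in Ctrl, Mid_Ob and Ob, and ranged from 7.999% to 52.8%, 4.17% to 102% and 6.40% to 83.7%. Cfd had the highest value in Ctrl and Mid_Ob and Lpl in Ob. The range is wide and its upper end was set by Cfd or Lpl alone, so a level inside it does not show where transcripts came from. Gpam, Gpat3, Agpat2, Lpin1, Lpin3, Dgat1, Dgat2 and Mogat1 had intervals that lay in or reached into this range in all 3 libraries. Lpin2 lay above it, at 223%, 196% and 251% of its adipocyte-like level. Agpat3 was at 67.5%, 63.6% and 63.1%, above the range in Ctrl and inside it in Mid_Ob and Ob.

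**Figure D4:**
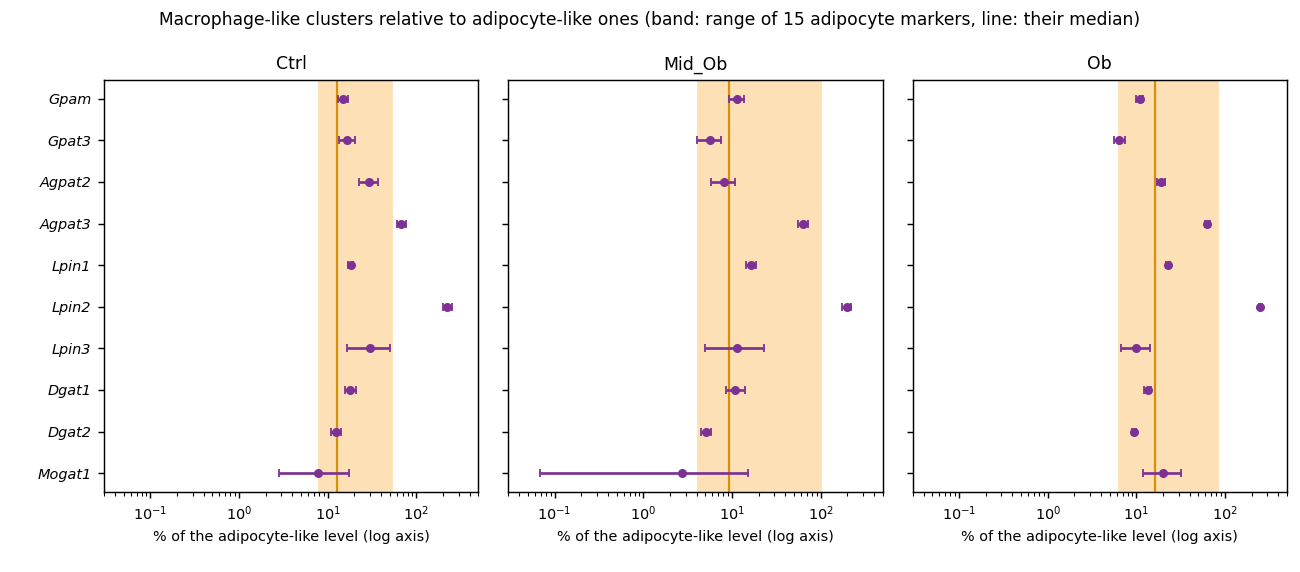
Level of each enzyme in macrophage-like clusters as a percentage of its level in adipocyte-like clusters of the same library, on a log axis, with 95% intervals. The band spans the same percentage for the 15 adipocyte markers and the line is their median; Lpin2 lies to the right of the band in each library, at 223%, 196% and 251%.

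Isoenzymes of the same step shifted against each other within the adipocyte-like nuclei, a comparison that does not depend on how the libraries are scaled. It does take in RNA of other cell types counted in these nuclei, and the part of that RNA was not tested. Epididymal markers summed to 297, 2276 and 78.9 CPM there in Ctrl, Mid_Ob and Ob, and germ cell markers to 508, 117 and 156. Epididymal epithelium-like nuclei of Mid_Ob held Agpat3 at 232 CPM and Lpin2 at 133, and germ cell-like nuclei of Ctrl held Gpat3 at 164. The odds of a Dgat2 count against a Dgat1 count were 3.20 times higher in Mid_Ob than in Ctrl (3.03 to 3.37), 0.422 times those of Mid_Ob in Ob (0.406 to 0.438), and 1.35 times those of Ctrl in Ob (1.28 to 1.42). Agpat2 against Agpat3 was 3.20 times higher in Mid_Ob than in Ctrl (2.89 to 3.55) and 2.41 times higher in Ob than in Ctrl (2.18 to 2.66). Gpat3 against Gpam was 2.08 times higher in Mid_Ob (1.95 to 2.21) and 2.02 times higher in Ob (1.90 to 2.14) than in Ctrl. This last balance hardly differed between Ob and Mid_Ob, at 0.9705 (0.929 to 1.01). Lpin1 against Lpin2 was 0.436 times its Ctrl value in Mid_Ob (0.396 to 0.480) and 0.321 times in Ob (0.294 to 0.3503), the latter with the macrophage transcripts of cluster 5 included.

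The same contrasts were drawn for 34 other genes around the pathway. Their Ob levels are summed over clusters 4, 5 and 7, with the macrophage transcripts of cluster 5 included. Values without cluster 5 are not given for these genes. In adipocyte-like nuclei, 7 of the 32 with enough counts were higher and 4 lower in Mid_Ob than in Ctrl, 2 of 30 were higher and 6 lower in Ob than in Mid_Ob, and 3 of 31 were higher and 4 lower in Ob than in Ctrl. Over all genes the shares in these comparisons were 15.3% and 20.2%, 15.3% and 19%, and 18.8% and 27.6%, so that these counts were mostly near or below them. The 8 other isoenzymes of the same steps gave 1 higher and 2 lower of 7 in Mid_Ob against Ctrl. Among them Gpat4, the other GPAT of the endoplasmic reticulum, was at 159, 59.8 and 56.6 CPM in Ctrl, Mid_Ob and Ob, so that it was 2.65-fold lower in Mid_Ob than in Ctrl (2.49 to 2.83) where Gpat3 was higher. Gpat2, a testis isoform, was at 3.08 CPM in Ctrl and 0.481 in Mid_Ob, from 42 and 13 counts. Germ cell markers summed to 508 CPM in these nuclei of Ctrl and 117 in Mid_Ob, and the part of germ cell RNA was not tested. Mogat2, the intestinal monoacylglycerol acyltransferase, was at 1.98, 6.96 and 2.28 CPM, from 27, 188 and 141 counts, 3.51-fold higher in Mid_Ob than in Ctrl (2.34 to 5.47) and 3.05-fold lower in Ob than in Mid_Ob (2.44 to 3.82). Tmem68 (44.7, 49.8 and 52.0 CPM) and Agpat4 (23.7, 17.2 and 25.3 CPM) stayed within 1.5-fold in both steps.

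In the list for the supply of substrates, 5 of 11 genes were higher and 1 lower in Mid_Ob than in Ctrl, beside 15.3% and 20.2% of all genes. In Ob against Mid_Ob 2 of 10 were higher and 3 lower, near the 15.3% and 19% of all genes. Gpd1, which makes glycerol 3-phosphate from a glycolytic intermediate, was at 20.5 CPM in Ctrl, 142 in Mid_Ob and 113 in Ob, 6.94-fold higher in Mid_Ob than in Ctrl (6.15 to 7.87). Gk, glycerol kinase, was at 44.7, 106 and 65.9 CPM, 2.37-fold higher in Mid_Ob than in Ctrl (2.17 to 2.59) and 1.61-fold lower in Ob than in Mid_Ob (1.53 to 1.69). Acsl1, the main acyl-CoA synthetase of adipocytes, was at 909, 1436 and 2984 CPM and so was higher at each step, by 1.58-fold (1.55 to 1.61) and 2.08-fold (2.06 to 2.10).

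Other acyl-CoA genes took different directions. Acsl3 was 2.06-fold higher in Mid_Ob than in Ctrl (1.82 to 2.32) and 2.52-fold lower in Ob than in Mid_Ob (2.33 to 2.73), Acsl4 was 1.78-fold higher at the first step (1.63 to 1.93), and Acsl6, with 42 and 14 counts, was 5.95-fold lower (3.19 to 11.8). As for Gpat2, the part of germ cell RNA in the Ctrl counts of Acsl6 was not tested. The fatty acid transporter Slc27a1 was 2.30-fold higher in Ob than in Mid_Ob (2.23 to 2.37), and Slc27a4 was 1.62-fold lower (1.38 to 1.89).

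Among 5 genes of lipid droplet assembly at the endoplasmic reticulum, none of the 4 with enough counts passed 1.5-fold between Mid_Ob and Ctrl. Pnpla3, an acylhydrolase of the droplet, was at 1346, 1388 and 879 CPM, 1.58-fold lower in Ob than in Mid_Ob (1.56 to 1.60). Bscl2, which encodes seipin, was at 51.9, 47.5 and 43.5 CPM, and Fitm2 at 50.8, 35.6 and 46.0. The phosphatase complex that activates lipins, Ctdnep1 and Cnep1r1, gave no call in either step, with ratios of 0.780 and 0.928 in Mid_Ob over Ctrl. In the branch to phospholipids, 1 of 8 genes was higher and 1 lower in Mid_Ob than in Ctrl, not above the 15.3% and 20.2% of all genes. Cds1, which draws phosphatidate away to CDP-diacylglycerol, was 1.63-fold higher in Mid_Ob than in Ctrl (1.49 to 1.79) and 1.60-fold lower in Ob than in Mid_Ob (1.51 to 1.69). Cept1 was 1.66-fold lower in Mid_Ob than in Ctrl (1.59 to 1.74), while Chpt1 (926, 896 and 938 CPM) and Lclat1 (76.1, 79.4 and 57.8 CPM) passed 1.5-fold in neither step.

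**Figure D5:**
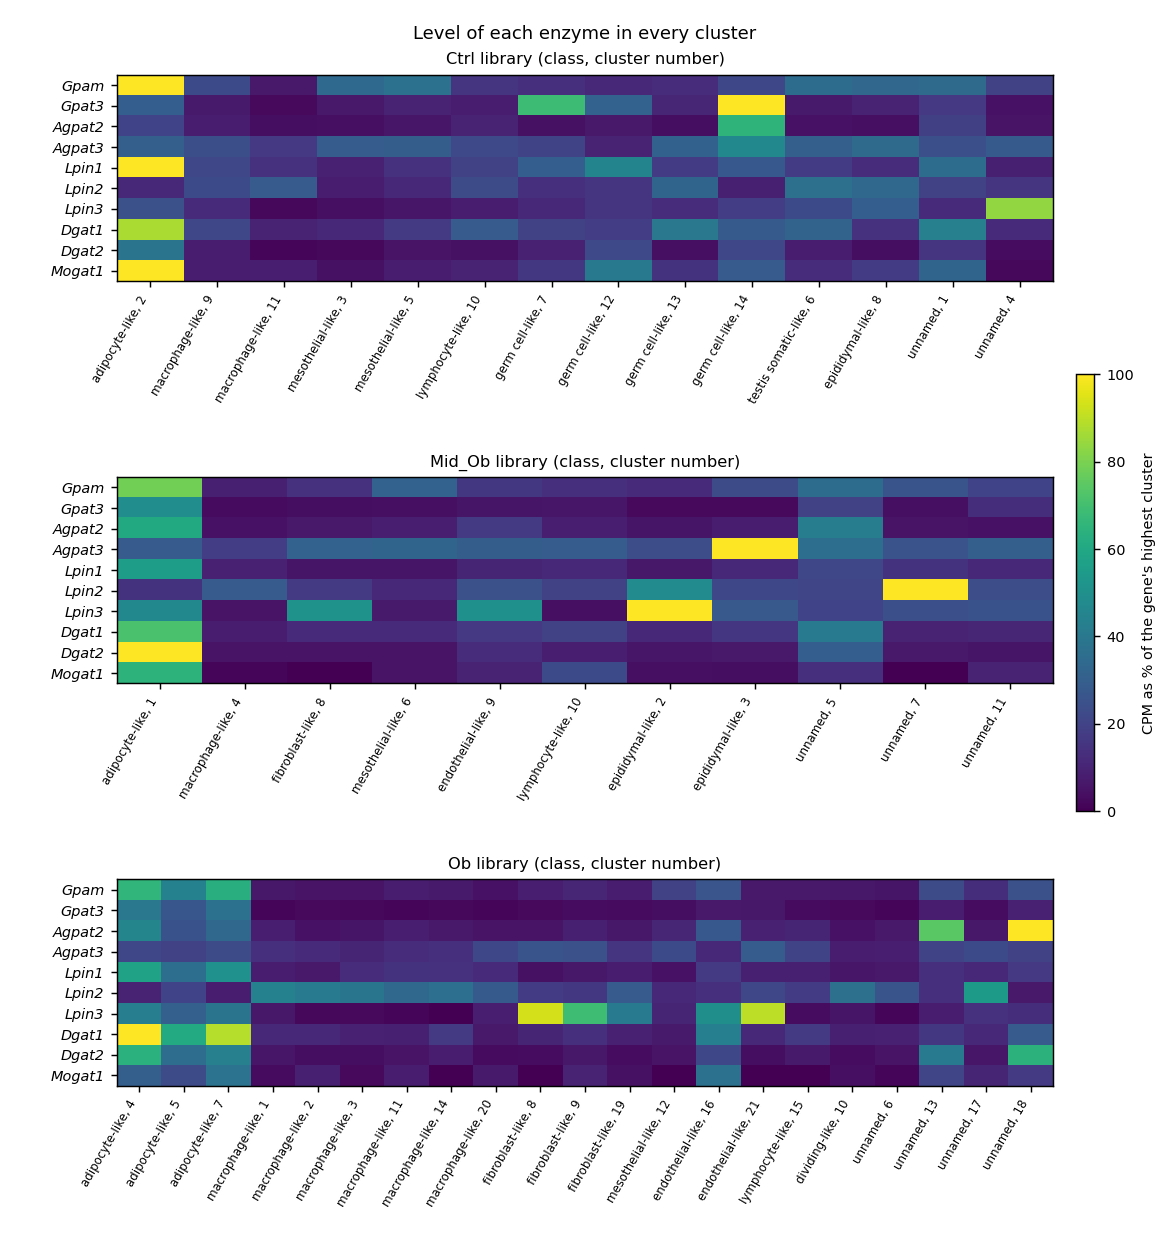
CPM of each enzyme in all 46 clusters, by library and class, coloured as a percentage of the highest cluster of that gene over the series. In each library an adipocyte-like column is the brightest for Gpam, Lpin1, Dgat1 and Mogat1, and Gpat3 is brightest in germ cell-like cluster 14 of Ctrl (442 CPM), Agpat3 in epididymal epithelium-like cluster 3 of Mid_Ob (350.3 CPM) and Lpin2 in unnamed cluster 7 of Mid_Ob (398 CPM).

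Within each library most neighbours in the order of levels had overlapping intervals. For Gpam, 11 of 13 neighbouring pairs of clusters overlapped in Ctrl, 8 of 10 in Mid_Ob and 17 of 20 in Ob, and the adipocyte-like cluster stood apart at the top in Ctrl and Mid_Ob. The same was so for Lpin1, Dgat1 and Dgat2 in Ctrl and Mid_Ob. For Mogat1 every neighbouring pair overlapped in all 3 libraries. For Lpin2 all 13 pairs overlapped in Ctrl, and the best placed adipocyte-like cluster ranked 12 of 14 clusters in Ctrl, 10 of 11 in Mid_Ob and 12 of 21 in Ob.

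Patterns of other genes were compared with the enzymes by Pearson's correlation of log2(CPM + 1) over the 46 clusters, among 13870 genes with at least 500 counts. Clusters of a library share depth, free RNA and preparation, so the values are a description. Dgat1 was most like Pnpla3 (r = 0.96), Trhde (0.95) and Slc7a10 (0.94), and Dgat2 most like Trp53inp2 (0.93), Plin4 (0.93) and Aoc3 (0.92). Agpat2 was most like Pex16 (0.91), Tmem120a (0.89) and Trp53inp2 (0.89). Gpam followed Klf15 (0.89), Ltbp3 (0.89) and Mccc2 (0.88), Lpin1 followed Ankef1 (0.88), Pnpla3 (0.87) and Eepd1 (0.86), and Mogat1 followed Lpin1 (0.82), Ankef1 (0.80) and Pnpla3 (0.80). Gpat3 was most like Lrrc4c (0.87), Gnpat (0.87) and Pex5l (0.86). Lpin3, Lpin2 and Agpat3 had other partners, Arhgef28 (0.84), Srgap1 (0.82) and Mid2 (0.81) for Lpin3, Pak1 (0.81), Pik3c2a (0.81) and Tmem164 (0.79) for Lpin2, and Stc2 (0.75), Erc2 (0.74) and Rtkn (0.73) for Agpat3. With log2(CPM + 10) only 1 of the 3 genes named stayed among the closest 3 for Agpat3, Lpin3 and Mogat1, 2 for Gpam, Lpin1 and Lpin2, and all 3 for Gpat3, Agpat2, Dgat1 and Dgat2. Among the enzymes, Agpat2 and Dgat2 were the pair most alike (r = 0.89), and Lpin2 had a negative r with each of the 9 others, from -0.16 with Lpin3 to -0.56 with Agpat2.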

How the data were processed

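Nuclei of 3 pooled libraries had been clustered by the authors. Their methods name DoubletFinder and a limit of 5% mitochondrial UMIs, but clusters 13 and 18 of Ob lie above that limit (6.18% and 8.39%), so whether the deposited clusters come from the filtered nuclei is not known. No doublet caller could be run on cluster values. The deposited value of each gene in each cluster is a signal, made by the authors with Cell Ranger and its STAR aligner: all UMIs that a cluster's nuclei held of a gene, over a factor shared by that cluster. Versions, genome build and annotation were not given in the sources used here. Whole UMI counts were recovered, since every value of a cluster was a whole multiple of its smallest value within 0.001 of a count (100% of values), and genes absent from a table were set to 0. The tables also hold log2 fold changes and adjusted p-values of the authors' own comparison of each cluster with the other nuclei, which were not used. Whether counting used strand is not stated, so overlapping genes are uncertain.

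Counts were summed by class and divided by all UMIs of the class. Classes needed 3 or more markers with at least 10 counts and over 2-fold of their median level elsewhere in the library, and names were settled after the marker levels were seen. A gene was called past 1.5-fold with at least 50 counts in the pair. Intervals are exact 95% intervals. All 3 comparisons were made over whole libraries and in adipocyte-like clusters, with no test. Named genes were the 10 enzymes, the 3 genes of each pathway list with the most counts, any list gene called in adipocyte-like clusters in either step, and for each enzyme the 3 genes most alike over clusters, leaving out Gm numbers, Rik clones and mitochondrial genes; the overlapping genes in the closing section stand outside this rule and were chosen after their values were seen. The members and lists were chosen with earlier results of these data known. Of 29625 identifiers, 29593 (99.9%) matched GENCODE M21, the source of coordinates (GRCm38). Scripts were tested on simulated data and ran with matplotlib 3.10.9, pandas 2.3.3, scipy 1.17.1 and numpy 2.4.6 under Python 3.11.15. Alternatives changed the scaling, the clusters used, their weight, the count minimum, the fold and the pseudocount.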

Additional observations from a re-analysis of the deposited data

How the results depend on the processing

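With 1 pooled library a stage, counting intervals do not cover mice, dissection or preparation, and the stages differ in testis and epididymis nuclei. Ctrl differs from Mid_Ob and Ob in both diet and time in the study scheme, so these cannot be told apart. No paired analysis was possible because each stage is 1 library. No enzyme past 1.5-fold in the main setting changed direction under the alternatives run, and 77 of 94 alternative counts of enzymes stayed within 1.5 times. Gpat3 over whole libraries, within 1.5-fold in the main setting, passed it in opposite directions under different alternatives. In Mid_Ob over Ctrl its log2 ratio was 0.95 without testis and epididymis clusters and -1.12 with every cluster at equal weight. Over whole libraries with every cluster at equal weight, 3 enzymes were lower in Mid_Ob than in Ctrl instead of 0, 1 lower in Ob than in Mid_Ob instead of 4, and 5 lower in Ob than in Ctrl instead of 2. Without testis and epididymis clusters 4 were lower in Ob than in Ctrl, and with scaling by the median gene 1 was. At 2-fold, 1 was lower in Ob than in Mid_Ob, and 1 higher and 1 lower in Ob than in Ctrl. In adipocyte-like nuclei, Mid_Ob against Ctrl gave 1 lower enzyme instead of 2 with median scaling or with a minimum of 500 counts, which Mogat1 missed. At 2-fold it gave 2 higher and 0 lower, Ob against Mid_Ob gave 2 lower instead of 4, and Ob against Ctrl 0 higher. Ob against Ctrl gave 2 higher instead of 1 with median scaling, 3 without cluster 5 of Ob and 0 with scaling to the adipocyte markers. Shares of all genes under these alternatives are not given here, so these counts cannot be set against those of other genes. The median gene differed by log2 -0.16, -0.09 and -0.35 over whole libraries in Mid_Ob over Ctrl, Ob over Mid_Ob and Ob over Ctrl, and by -0.08, -0.03 and -0.12 in adipocyte-like nuclei, where the adipocyte markers differed by 0.17, 0.10 and 0.26. With a pseudocount of 10 CPM, r of Agpat3 with Stc2 was 0.65 instead of 0.75, and the closest gene became Smarcd3 for Agpat3, Heph for Gpam, Pex5l for Gpat3 and Atp8b1 for Lpin3. The causes were not tested.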

Other observations

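Several of the enzymes share bases with a gene on the opposite strand, and these neighbours had counts of their own. Gm31356, which shares 18314 bases with Gpam, was at 66.1 CPM (61.8 to 70.5) in the adipocyte-like nuclei of Ctrl, 124 (119 to 128) in Mid_Ob and 93.4 (91.0 to 95.8) in Ob. Its counts came to 17.7%, 42.0% and 47.5% of the Gpam counts, so that Gm31356 was higher on high fat diet where Gpam was lower. BC035947, which shares 1168 bases with Mogat1, was at 28.6 CPM (25.9 to 31.6), 15.7 (14.2 to 17.2) and 8.33 (7.63 to 9.08), in the same order as Mogat1. The counts of BC035947 exceeded those of Mogat1, at 179%, 151% and 193% of them. Gm16751, which shares 7359 bases with Lpin3, was at 5.29, 9.55 and 6.94 CPM and its own counts came to 50.3%, 48.8% and 47.0% of the number counted for Lpin3. Egfl7, which shares 64 bases with Agpat2, was at 4.33, 20.9 and 6.53 CPM. 4930458D05Rik, which shares 1455 bases with Gpat3, was at 15.1, 19.02 and 10.9 CPM. Gm26561, on the strand of Lpin2, was not listed in any library, so it has no level to give.

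In macrophage-like nuclei, Lpin1 was at 158, 80.0 and 87.9 CPM in Ctrl, Mid_Ob and Ob, and Dgat1 at 39.4, 19.4 and 25.5 CPM. Both were inside the wide range of the adipocyte markers there, which does not show where these transcripts came from.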
